A study of Mus musculus with 6 samples.

Results

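The genes described here are 9 Krüppel-like factors, Klf2, Klf3, Klf4, Klf6, Klf7, Klf9, Klf10, Klf11 and Klf13, and Nos3, the endothelial nitric oxide synthase. They were chosen by name, and all 10 were found among the 48897 genes of the deposited table. The libraries hold RNA of sinusoidal endothelial cells, the lining of the liver's capillaries, taken from C57BL/6 mice aged 7 to 8 weeks. In one group some of the liver had been cut away (partial hepatectomy, PHx), the other had a sham operation, and both were sampled on day 14. Each group held 3 libraries, numbered 1, 3 and 4, of cells bound to magnetic beads against CD146, a surface protein also found on pericytes and other endothelium. The labels name no altered gene in either group. The labels do not say that the libraries came from separate animals, so each p-value reflects the spread between these samples alone, and that spread may be technical.

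Krüppel-like factors are transcription factors with a conserved C-terminal set of zinc fingers that bind CACCC and GC-rich boxes. In endothelium, laminar blood flow raises Klf2 and Klf4 through a kinase route that ends in ERK5 and the MEF2 factors, and KLF2 raises Nos3, whose product, nitric oxide, relaxes vessels and keeps neighbouring stellate cells quiet. Other members act in other ways: KLF3 represses with the CtBP corepressor, KLF9, KLF10, KLF11 and KLF13 recruit SIN3A, and KLF6 is induced early after injury.

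Depth was similar across the libraries, with 38765116 to 51888481 summed counts. Mcam, which encodes CD146, had a log2 fold change of 0.11 ± 0.15 (SE, adjusted p = 0.783). Of the 12 sinusoidal endothelial markers all were detected, edgeR called none and DESeq2 called 5, and their summed level was 32070 to 33950 CPM (counts scaled to library size with TMM factors) in sham and 17600 to 27440 in PHx, with no overlap. The 10 stellate and fibroblast markers summed to 1656 to 2111 CPM in sham and 4950 to 6447 in PHx, and edgeR called 7 of them higher. In bulk RNA, fewer cells of a type and less RNA per cell cannot be told apart. Neutrophil markers stood apart in 1 library, with 4642 CPM for the 12 genes in PHx 4 and 32.7 to 715 in the other libraries.

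Per length, Klf2 was the most abundant of the 10 genes in both groups, at 385 ± 71.5 RPKM (CPM per kilobase of gene length) in sham and 346 ± 52.8 in PHx (SD, n = 3). It made up 47.5% to 56.6% of the summed RPKM of the 9 Klf genes in every library. Klf4 followed with 113 ± 39.7 RPKM in sham and 107 ± 26.6 in PHx, below every Klf2 value. In sham the order then ran Nos3 (67.4), Klf3 (59.5), Klf9 (53.6), Klf6 (39.7) and Klf13 (34.0), and from Klf4 to Klf13 each gene's libraries overlapped those of its neighbour. Klf7 (20.7), Klf10 (17.6) and Klf11 (11.3) came last, each below all libraries of the gene before it. In PHx the order was the same except that Klf6 came directly after Klf4, at 68.5 RPKM, and Klf9 passed Klf3, and the libraries of Klf6, Nos3, Klf9 and Klf3 overlapped from one neighbour to the next.

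Between PHx and sham edgeR's quasi-likelihood test, adjusted over 19033 genes with a threshold of 0.05, called none of the 10 genes, and neither did DESeq2 or limma-voom. Of all tested genes edgeR called 0.862%, with 0.846% higher and 0.0158% lower in PHx. DESeq2 called 4.73%, with 4.02% higher and 0.703% lower. The adjusted p-values of the members ran from 0.365 to 0.989. At an unadjusted p under 0.05 edgeR had 2 of the 10, Klf3 and Klf6, against 12.7% of all tested genes (7.93% higher, as Klf6 was, and 4.73% lower, as Klf3 was). In 8 members the log2 fold change was below 0 and in 2 above, with a median of -0.094. Over all tested genes 47.0% lay below 0 and 53.0% above, with a median of 0.03. In 9 members the 95% interval of the fold change lay between 0.5-fold and 2-fold, and Klf6 was the exception, with an interval up to 2.88-fold. These intervals are not adjusted for the number of genes.

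**Figure D1:**
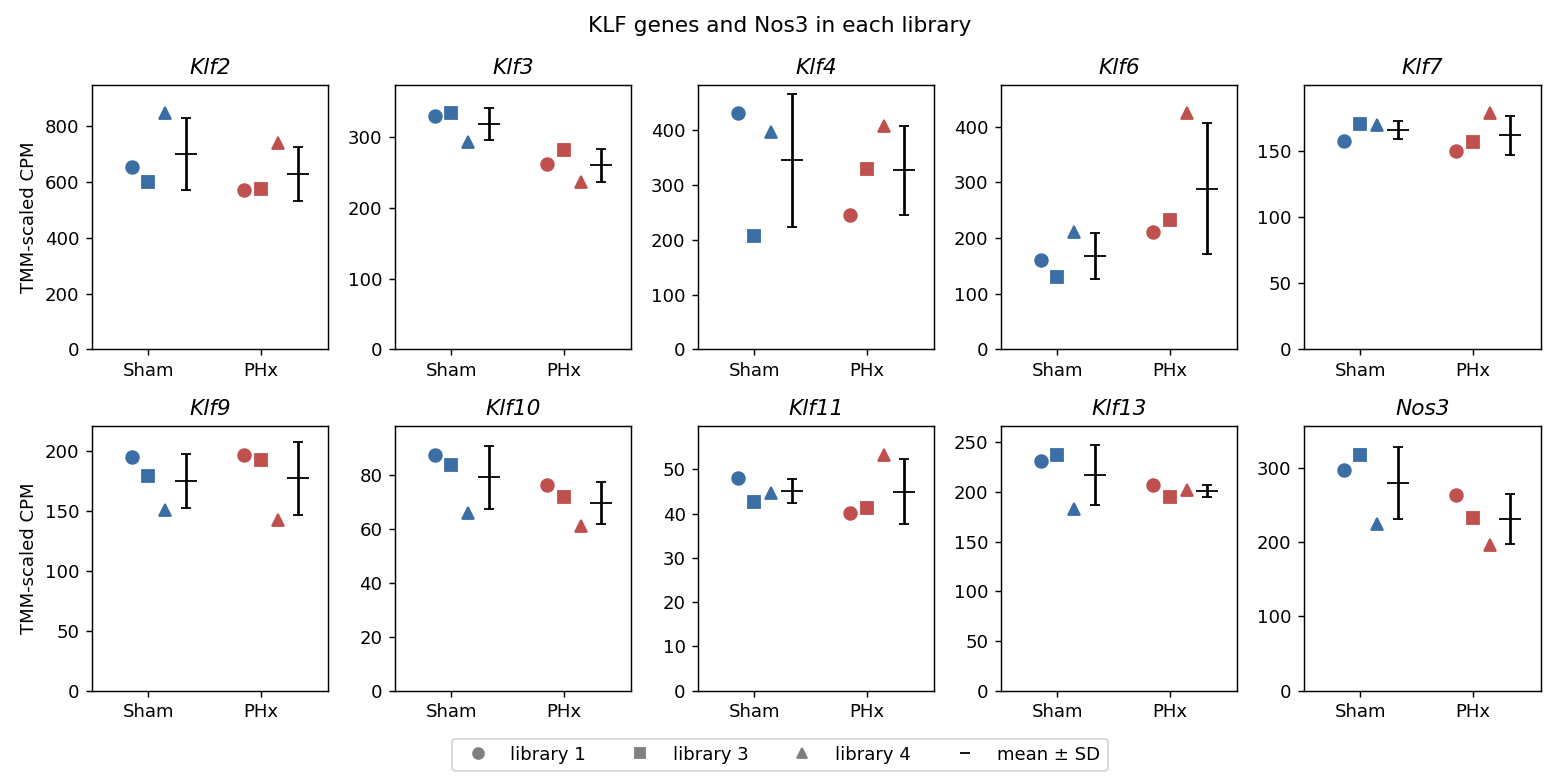
TMM-scaled CPM (vertical axis, from 0) of the 10 genes in the 3 Sham (blue) and 3 PHx (red) libraries, with the library number as symbol and mean ± SD as black bars. Klf3 is the gene whose PHx libraries, 236 to 281 CPM, all lie below the Sham libraries, 292 to 333 CPM.

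**Figure D2:**
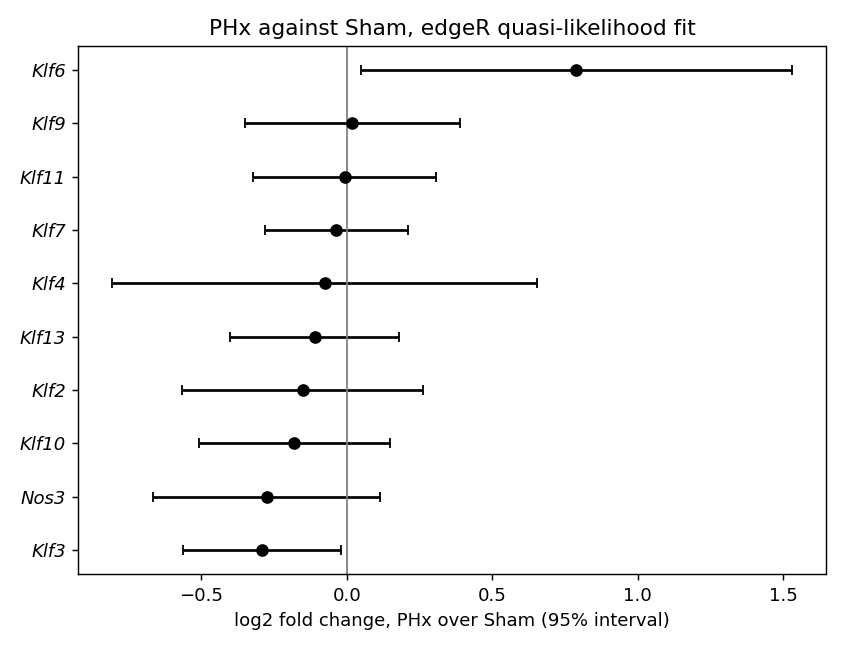
Log2 fold change of PHx over Sham (horizontal axis) for each of the 10 genes, with the unadjusted 95% interval as bar. The intervals of Klf3 (-0.56 to -0.02) and Klf6 (0.05 to 1.53) do not include 0, and those of the other 8 genes do.

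Klf2, the flow-induced factor of quiescent endothelium, stood at 652, 598 and 845 CPM in Sham 1, 3 and 4 and at 571, 576 and 739 CPM in PHx 1, 3 and 4. PHx 1 and PHx 3 lay below all sham libraries, and PHx 4 lay between the sham values. Its log2 fold change was -0.15 ± 0.18 (SE, adjusted p = 0.742), a 0.900-fold level with a 95% interval of 0.675 to 1.20. The gene lies on chromosome 8, 72319062 to 72321654 (mm10), plus strand.

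Klf4, a close relative of Klf2 that shares many of its endothelial targets, varied most within the sham group, at 430.5, 206 and 397 CPM in Sham 1, 3 and 4. In PHx 1, 3 and 4 it stood at 245, 329 and 407 CPM, all within the sham range. The highest sham library held 2.08 times the lowest, and the log2 fold change was -0.08 ± 0.31 (adjusted p = 0.939). The direction was not stable: it was 0.09 without Sham 1 and 0.09 without PHx 1. Klf4 lies on chromosome 4, 55527137 to 55532475, minus strand.

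Promoters were looked up because the flow route to Klf2 ends at its MEF2 site. RefSeq promoter sequences (GRCm38.p6) were at hand for 8 of the 10 members, and the set used here held none for Klf10 and Nos3. Shown are the 250 bases before the start of the leading member, Klf2, of Klf4, its closest partner in endothelium, and of Klf3 and Klf6, the members with the smallest p-values. Capitals mark CACCC, read on either strand (GGGTG), and the MEF2 motif.

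Klf2: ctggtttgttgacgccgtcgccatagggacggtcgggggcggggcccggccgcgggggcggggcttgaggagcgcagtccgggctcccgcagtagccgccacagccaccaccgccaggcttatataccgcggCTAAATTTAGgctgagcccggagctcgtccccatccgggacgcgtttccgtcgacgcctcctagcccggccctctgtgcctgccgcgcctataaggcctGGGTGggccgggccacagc
Klf4: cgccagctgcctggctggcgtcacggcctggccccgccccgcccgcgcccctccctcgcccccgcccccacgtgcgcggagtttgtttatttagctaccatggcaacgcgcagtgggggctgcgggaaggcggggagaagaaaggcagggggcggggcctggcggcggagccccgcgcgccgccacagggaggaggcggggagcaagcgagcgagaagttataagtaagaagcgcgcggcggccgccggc
Klf3: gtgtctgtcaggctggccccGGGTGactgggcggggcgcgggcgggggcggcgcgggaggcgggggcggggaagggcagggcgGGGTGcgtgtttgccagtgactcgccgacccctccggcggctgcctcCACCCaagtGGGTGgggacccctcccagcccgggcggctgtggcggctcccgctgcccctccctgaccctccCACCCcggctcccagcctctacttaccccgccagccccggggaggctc
Klf6: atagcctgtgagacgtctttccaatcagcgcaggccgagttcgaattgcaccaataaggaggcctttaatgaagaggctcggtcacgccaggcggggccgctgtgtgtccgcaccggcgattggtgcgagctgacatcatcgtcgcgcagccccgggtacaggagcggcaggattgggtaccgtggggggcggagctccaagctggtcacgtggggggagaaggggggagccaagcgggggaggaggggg

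These windows are chr8:72318812-72319061 (plus strand) for Klf2, chr4:55532476-55532725 (minus) for Klf4, chr5:64803271-64803520 (plus) for Klf3 and chr13:5861239-5861488 (plus) for Klf6. The MEF2 motif, CTAAATTTAG, was found once, 118 to 109 bases before the Klf2 start, and in no other member, while 2.92% of 32851 promoter windows of this length hold one. CACCC was in 5 of the 8 members' windows and in 17087 of the 32851 windows. Klf3 held 5 copies, Klf7 3, and Klf2, Klf9 and Klf13 1 each. The Klf7 window, chr1:64121390-64121639 (minus), lies inside the gene's span in the deposited table, 64029448 to 64122328. The GC box GGGCGG, read on both strands, was in 7 of the 8, against 32.7% of all windows, and overlapped a CACCC match by a single base in Klf3 and Klf13. CCAAT on either strand was in 4 of the 8 (33.8% of all windows) and held 4 copies in Klf6. The E-box CACGTG was in Klf4, Klf6 and Klf11 (6.02% of all windows). No window of a member held the CArG motif of SRF, which 1.47% of all windows hold. The members' windows were 59.2% (Klf7) to 78.4% (Klf3) G or C, where the median window was 52.4%. A match is a run of letters and no evidence of binding in these cells.

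The genes of the route that carries flow signals to Klf2 were listed as 16 genes, from the sensors Piezo1, Pecam1, Cdh5 and Kdr to the kinases Map3k3, Map2k5 and Mapk7 (ERK5) and the MEF2 factors. edgeR called none in either direction, and DESeq2 called Kdr alone. The median log2 fold change was -0.09, with 12 below 0 and 4 above. Mef2a, Mef2c and Mef2d stood at -0.0039, -0.14 and -0.01. The most abundant genes of the list were surface proteins of endothelium. Kdr, the main VEGF receptor, stood at 4797 ± 40.5 CPM in sham and 2923 ± 872 in PHx (adjusted p = 0.276 in edgeR, 0.0339 in DESeq2). Plxnd1, a semaphorin receptor, had a log2 fold change of -0.47 ± 0.17 and Cdh5, the cadherin of endothelial junctions, one of -0.34 ± 0.18. PHx libraries lay below all sham libraries in 5 of the 16, where 9.96% of all tested genes did. They lay above all sham libraries in 1 of the 16, against 10.6% of all tested genes. Pecam1, Cdh5 and Kdr are also on the list of 12 sinusoidal endothelial markers, whose summed level was lower in the same libraries, and its part in these values was not tested.

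Nos3 stood at 297, 318 and 225 CPM in Sham 1, 3 and 4 and at 263, 233 and 196 CPM in PHx 1, 3 and 4. PHx 4 was the lowest of the 6 libraries, and the other 2 PHx libraries lay above Sham 4. This gave a log2 fold change of -0.28 ± 0.17 (SE, adjusted p = 0.525), a 0.826-fold level with a 95% interval of 0.630 to 1.08. Beside it, Cdh5 and Pecam1, which mark the same cells, stood at -0.34 ± 0.18 and -0.21 ± 0.14. They do not stand for all 12 sinusoidal endothelial markers, whose median was -0.58, with 10 below 0 and 2 above. Leaving out Sham 4 moved Nos3 to -0.45 (adjusted p = 0.398 in edgeR). The gene lies on chromosome 5, 24364819 to 24384474, plus strand. Its exons share 294 bases with Atg9b on the other strand, which had 261 to 382 counts per library where Nos3 had 9434 to 16445, and 1040 bases with Gm15587, also on the other strand, for which no counts were used here. The use of strand in counting was not given in the sources used here.

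The ratio of Nos3 to Klf2 CPM was 0.455, 0.532 and 0.266 in Sham 1, 3 and 4, against 0.461, 0.405 and 0.266 in PHx 1, 3 and 4. The groups overlapped, and the lowest ratio in each was in library 4. Genes that make nitric oxide or supply its synthesis were listed as 21 genes: the other synthases, partners of the enzyme such as Cav1, Hsp90ab1, Akt1 and calmodulin, and the enzymes of arginine and tetrahydrobiopterin supply. None was called by edgeR, 11 lay below 0 and 10 above, and the median was -0.0056. Among the most abundant were Hsp90ab1, a chaperone, at 0.19 ± 0.16, and Calm2, a calmodulin gene, at -0.23 ± 0.16. Nos1 and Nos2, the neuronal and inducible synthases, were scarce. Nos1, named after its values were seen, stood at 0.334 ± 0.078 CPM in sham and 1.79 ± 0.91 in PHx, with an adjusted p of 0.0926 in edgeR and 0.0011 in DESeq2. Nos2 was at 1.02 to 1.93 CPM in sham, 2.05 and 1.66 in PHx 1 and 3 and 13.02 in PHx 4, the library high in neutrophil markers.

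Genes listed as raised by KLF2 or KLF4 in endothelium did not move together. Of 12 tested, 1 rose, none fell and 11 did not pass, with 8 log2 fold changes above 0. Their median was 0.26, and it ranged from -0.02 without Sham 4 and PHx 4 to 0.33 without Sham 1. The gene that rose was Ptgis, the prostacyclin synthase, at 4.98, 5.05 and 6.05 CPM in Sham 1, 3 and 4 and 19.4, 21.1 and 10.3 CPM in PHx 1, 3 and 4 (log2 fold change 1.66 ± 0.28, adjusted p = 0.0487 in edgeR). That call was lost on leaving out Sham 1, Sham 3, Sham 4 or PHx 1. Fibroblasts and smooth muscle also express Ptgis, and stellate markers were higher in the same libraries; their part was not tested. Aqp1, a water channel and the most abundant gene of the list, stood at 7183 ± 116 CPM in sham and 4867 ± 1137 in PHx (adjusted p = 0.334). Tek, the angiopoietin receptor, had a log2 fold change of -0.42 ± 0.18 and Thbd, the anticoagulant thrombomodulin, one of 0.47 ± 0.24 (adjusted p = 0.393 and 0.465 in edgeR). DESeq2 called Ptgis and Gja5, a gap junction protein named after its values were seen.

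Of 9 genes listed as held down by KLF2 or KLF4, none was called by edgeR and 8 had a log2 fold change above 0. Their median was 0.83, beside 0.03 over all tested genes, and 0.51 without PHx 4. Sele, the adhesion receptor E-selectin, stood at 61.9, 28.7 and 55.6 CPM in Sham 1, 3 and 4 and 72.5, 137 and 546 CPM in PHx 1, 3 and 4. Every PHx value was above every sham value, and PHx 4 stood far above the rest (adjusted p = 0.359). Vcam1 and Icam1, which bind leukocyte integrins, stood at 0.83 ± 0.40 and 0.85 ± 0.49 on the log2 fold scale (adjusted p = 0.455 and 0.520), and the groups overlapped in both. DESeq2 called 2 of these 9 genes, not all of them reported here by name. Ccl2, a monocyte chemokine, was among them, with an adjusted p of 0.00064 in DESeq2, where edgeR gave 0.197. It was named after its values were seen. The background in DESeq2 was 4.73% of genes called. Neutrophil markers and immediate early genes had their highest sums in the same PHx 4 library. Stellate and fibroblast markers were higher in every PHx library, at 4950 to 6447 CPM against 1656 to 2111 in sham, with the highest sum in PHx 3. The part of these lists was not tested.

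**Figure D3:**
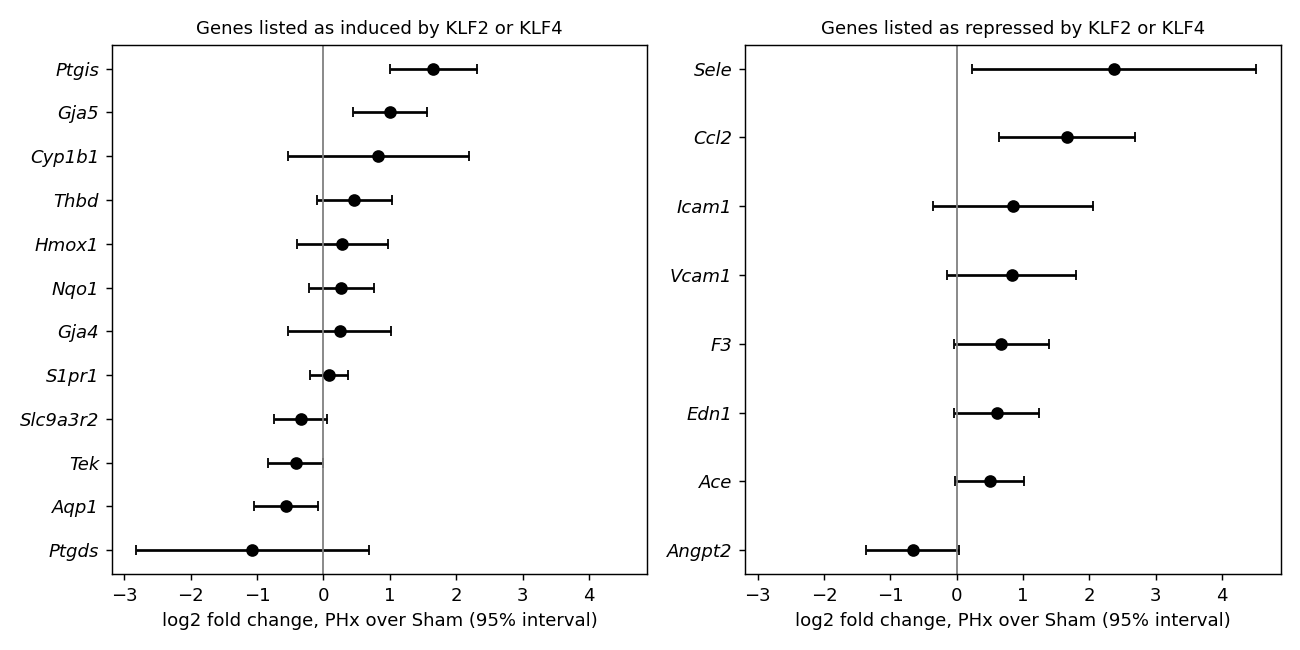
Log2 fold change of PHx over Sham (horizontal axis) with the unadjusted 95% interval for 12 genes listed as induced and 8 of the genes listed as repressed by KLF2 or KLF4. Among the induced genes 8 points lie above 0 and 4 below, and among the repressed genes plotted 7 lie above 0 and Angpt2 below.

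Klf6, a zinc finger factor induced early after tissue injury, had the largest difference of the 10 genes. It stood at 160, 130 and 212 CPM in Sham 1, 3 and 4 and at 210, 232 and 424 CPM in PHx 1, 3 and 4. PHx 4 held 2.02 times the level of PHx 1, and PHx 1 lay just below Sham 4. On the log2 scale the fold change was 0.79 ± 0.31 (SE, unadjusted p = 0.0402, adjusted p = 0.371 in edgeR), a 1.73-fold level with a 95% interval of 1.03 to 2.88. Without PHx 4 it was 0.40 ± 0.20 (adjusted p = 0.612). The authors' deposited RPKM are not TMM-scaled. On that scale the Klf6 groups did not overlap, at 30.8 to 49.7 RPKM in sham and 53.1 to 99.6 in PHx. The Klf3 groups did not overlap there either. The share of all genes without overlap on that scale was not computed. As a share of the summed RPKM of the 9 Klf genes, Klf6 made up 4.88% to 6.11% in sham and 7.89% to 12.4% in PHx. Klf6 lies on chromosome 13, 5861489 to 5870393, plus strand.

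Immediate early genes, a list of 22 that respond within minutes to stress or tissue dissociation, were measured beside the members. None was called by edgeR and 1 by DESeq2 (Fosl1, named for that call), 20 had a log2 fold change above 0, and the median was 0.53. That median rested on single libraries: it was 0.09 without PHx 4, 0.19 without Sham 3, 0.83 without Sham 4 and 0.84 without PHx 1. Their summed level was 15410, 6454 and 18070 CPM in Sham 1, 3 and 4 and 8532, 15940 and 22310 CPM in PHx 1, 3 and 4. The lowest sums, in Sham 3 and PHx 1, were in the libraries with the lowest Klf4, and the highest sum was in PHx 4, the library with the highest Klf6. Fos, Jun and Egr1, the most abundant of the list, had log2 fold changes of 0.14 ± 0.47, -0.16 ± 0.36 and -0.13 ± 0.84. Their part in the values of Klf4 and Klf6 was not tested.

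**Figure D4:**
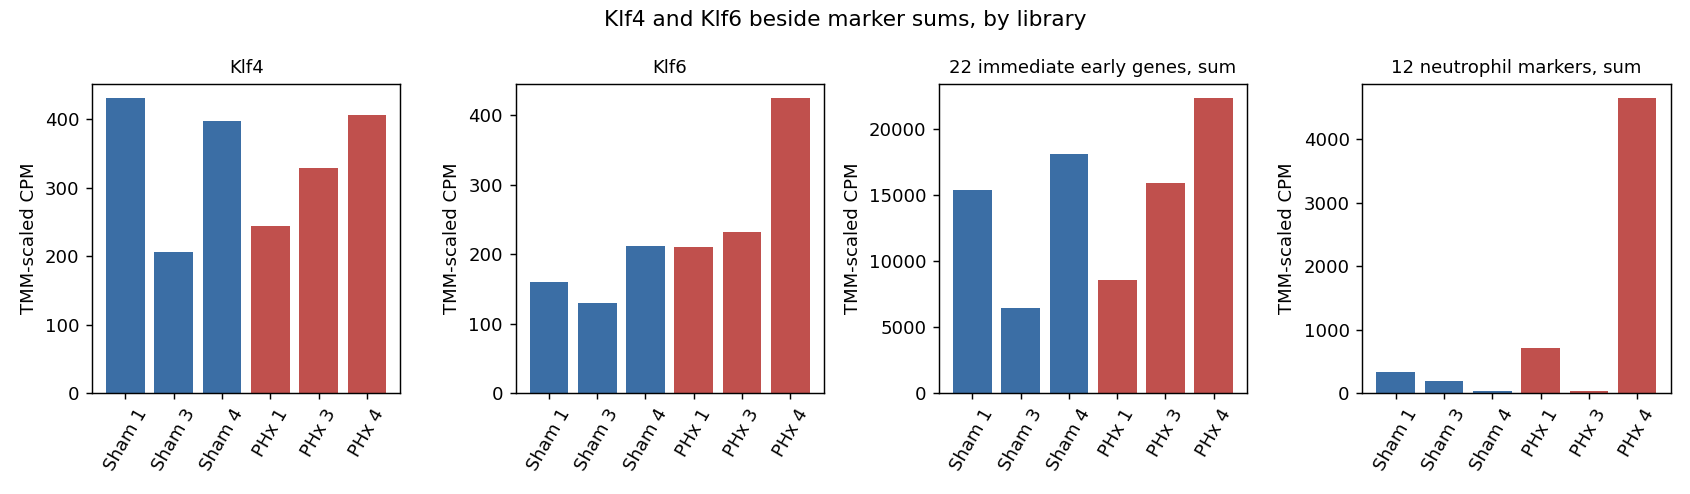
TMM-scaled CPM (vertical axes, from 0) in each library of Klf4, Klf6, the sum of 22 immediate early genes and the sum of 12 neutrophil markers, with Sham in blue and PHx in red. Klf4 and the immediate early sum are both lowest in Sham 3 and PHx 1, and PHx 4 is highest for Klf6 (424 CPM), immediate early genes (22310 CPM) and neutrophil markers (4642 CPM).

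Klf7, a ubiquitous factor best known from neurons, differed least between libraries. It stood at 158, 170 and 170 CPM in Sham 1, 3 and 4 and at 150, 157 and 178 CPM in PHx 1, 3 and 4. The highest library held 1.19 times the lowest, and the log2 fold change was -0.04 ± 0.11 (adjusted p = 0.910), with a 95% interval of -0.28 to 0.21. Its exons share 3196 bases with Gm26649, a gene on the other strand, and without strand the reads of such a pair cannot be told apart. Klf7 lies on chromosome 1, 64029448 to 64122328, minus strand.

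Klf3, a repressor that works with CtBP, was the 1 member of 10 whose groups did not overlap in TMM-scaled CPM. Over all tested genes the groups did not overlap in 20.5%, and all PHx libraries lay below all sham libraries in 9.96%. Klf3 stood at 329, 333 and 292 CPM in Sham 1, 3 and 4 and at 262, 281 and 236 CPM in PHx 1, 3 and 4. Its log2 fold change was -0.29 ± 0.12 (SE, unadjusted p = 0.0386, adjusted p = 0.365 in edgeR), a 0.817-fold level with a 95% interval of 0.676 to 0.986. An exact two-sided permutation test gave p = 0.1, the smallest that 3 against 3 libraries allow. Klf3 lies on chromosome 5, 64803523 to 64832903, plus strand, and its exons share 404 bases with the antisense transcript Gm20033.

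Of the members that recruit SIN3A, none was called, and in each the groups overlapped. Klf9, a glucocorticoid-induced factor, stood at 195, 179 and 151 CPM in Sham 1, 3 and 4 and at 197, 192 and 142 CPM in PHx 1, 3 and 4. The groups overlapped, with Sham 4 and PHx 4 lowest in each. A log2 fold change of 0.02 ± 0.16 resulted, with a 95% interval of -0.35 to 0.39, and its sign changed with the scaling: it was -0.011 with upper-quartile factors. Klf9 lies on chromosome 19, 23141226 to 23166911, plus strand.

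Klf10, a TGF-beta-inducible early factor, stood at 87.7, 83.9 and 66.0 CPM in Sham 1, 3 and 4 and at 76.3, 72.0 and 61.2 CPM in PHx 1, 3 and 4. PHx 4 was the lowest library, and Sham 4 lay below PHx 1 and PHx 3. The log2 fold change was -0.18 ± 0.14 (adjusted p = 0.613 in edgeR) and moved to -0.33 without Sham 4 (adjusted p = 0.430). Klf10 lies on chromosome 15, 38291464 to 38300711, minus strand.

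Klf11, its closest relative and the scarcest member, stood at 48.1, 42.5 and 44.8 CPM in Sham 1, 3 and 4 and at 40.1, 41.2 and 53.4 CPM in PHx 1, 3 and 4. PHx 1 was the lowest and PHx 4 the highest of the 6 libraries. Its log2 fold change was -0.0076 ± 0.14, with a 95% interval of -0.32 to 0.31, and its sign changed when single libraries were left out. Klf11 lies on chromosome 12, 24651371 to 24662782, plus strand.

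Klf13, another of the SIN3A-binding factors, stood at 231, 238 and 183 CPM in Sham 1, 3 and 4 and at 207, 195 and 202 CPM in PHx 1, 3 and 4. The PHx libraries agreed within 1.06 times and lay inside the sham range. The log2 fold change was -0.11 ± 0.13 (adjusted p = 0.732), and it was -0.26 without Sham 4 (adjusted p = 0.455 in edgeR). Klf13 lies on chromosome 7, 63886351 to 63938915, minus strand.

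Cofactors of these proteins were listed as well. Of 13 genes, among them Ctbp1, Ctbp2, Sin3a, Sin3b, Hdac1 and the acetyltransferase Ep300, edgeR and DESeq2 called none, 9 lay below 0, and the median log2 fold change was -0.05. The groups did not overlap in 1 of the 13, where 20.5% of all tested genes did not. This was Sin3b, named after its values were seen, at -0.27 ± 0.11 with all PHx libraries below all sham libraries. The most abundant, Ep300, Hdac1 and Ctbp1, stood at -0.17 ± 0.11, -0.10 ± 0.11 and -0.05 ± 0.11. Lists tied to the inducers of Klf9 and Klf10 gave no call by edgeR either. Of 8 glucocorticoid-responsive genes 5 lay above 0, with a median of 0.34 (0.17 without Sham 3 and 0.15 without PHx 4), and Per1, a clock gene, stood at 0.73 ± 0.19 (adjusted p = 0.170 in edgeR, 0.0228 in DESeq2). Sgk1 and Cebpd, the other most abundant genes of that list, stood at 0.18 ± 0.22 and 0.56 ± 0.24. Of 9 early TGF-beta response genes 5 lay above 0, with a median of 0.05, which fell below 0 without Sham 1, Sham 3 or PHx 1. edgeR called 1 of the 9 higher without PHx 4, and with all libraries DESeq2 called Pmepa1, named for that call. Id3, Ski and Smad6, its most abundant members, stood at -0.11 ± 0.14, -0.13 ± 0.11 and -0.25 ± 0.13.

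The rest of the KLF and SP family was listed as 17 genes, of which 9 passed the filter on low counts and none was called. Klf14, Klf17, Sp6 and Sp8 had a count of 0 in all libraries, which allows up to 3 counts, or 0.058 to 0.0795 CPM, per library. Klf1, Sp5, Sp7 and Sp9 were detected below the filter. Sp1, Sp3 and Sp2, the most abundant, stood at log2 fold changes of -0.18 ± 0.10, 0.22 ± 0.10 and -0.21 ± 0.11, with adjusted p of 0.489, 0.415 and 0.459. The groups did not overlap in 4 of the 9, these 3 and Klf15, where 20.5% of all tested genes did not. Klf15, named after its values were seen, had the lowest log2 fold change of the 9, at -0.43.

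The genes whose pattern over the 6 libraries was most like a member's were ranked by the root-mean-square difference in centred log2 CPM among 7307 genes with at least 20 CPM on average. For Klf4 these were Dusp1 (0.12), Ier5 (0.14) and Ccdc86 (0.14), of which Dusp1 and Ier5 were on the immediate early list. Dusp1, a phosphatase, ran at 1379, 773 and 1350 CPM in Sham 1, 3 and 4 and 1026, 1181 and 1461 CPM in PHx 1, 3 and 4. For Klf2 they were Vamp2 (0.06), Zfp787 (0.08) and Med26 (0.09), for Klf10 Abca7 (0.03), Mccc1 (0.03) and Tshz1 (0.04), and for Nos3 Caskin2 (0.03), Ddx56 (0.04) and Dhx37 (0.04). The points are 6 libraries that share their scaling, and the likeness is a description with no test.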

How the data were processed

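The deposited table holds, per the file headers, counts (whole numbers) and RPKM for each gene in each library, with a gene length in base pairs. TopHat2 2.0.13, bcl2fastq and mm10 (GRCm38) are named in the submitters' processing notes. The counting program, annotation and strand setting are not given in the sources used here. The authors' deposited RPKM equalled count over length and summed counts for 100% of values (relative tolerance 1e-06). The main test on the counts was edgeR 4.0.16 under R 4.3.3 (TMM, filterByExpr, robust quasi-likelihood, group only), with Benjamini-Hochberg adjustment over 19033 genes. DESeq2 1.42.0, limma-voom (limma 3.58.1), other scaling factors and filters, a stricter threshold, a replicate block and leaving out libraries were alternatives. CPM and RPKM are TMM-scaled unless said otherwise, log2 CPM uses a prior count of 2, and the SE is the absolute log2 fold change over the square root of F. The model was tested on simulated data. A count of 0 allows 3 counts, which covers counting error only. No library was a copy of another (chi-square per degree of freedom at least 49.9 in each pair).

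The members and lists were chosen with earlier results of these data known. Named were all members, up to 4 called and the 3 most abundant genes of each list (marker lists are given as sums and counts only), the 3 genes most like Klf2, Klf4, Klf10 and Nos3, and Mcam and Mki67; Mki67 had a log2 fold change of 0.47 ± 0.18. Other genes are said to be named after their values were seen, or serve to say what a list holds. Some genes of the lists are counted but not reported here by name. Of the marker lists not given in the report, the summed CPM in sham and PHx was 1117 to 1642 and 608 to 1252 for hepatocyte, 92.6 to 411 and 118 to 156 for Kupffer cell, 9.40 to 15.7 and 4.85 to 14.8 for T and NK cell, 33.4 to 49.4 and 38.3 to 64.6 for B and plasma cell, 7.08 to 15.3 and 22.0 to 42.8 for erythroid, 324 to 566 and 348 to 649 for cholangiocyte, and 186 to 271 and 533 to 846 for smooth muscle markers. Of these, 3 of 5 smooth muscle markers were called higher and edgeR called none of the others.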

Additional observations from a re-analysis of the deposited data

How the results depend on the processing

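No member was called under any of the alternatives run. Over all genes, 161 were higher and 3 lower, against 359 and 30 when low genes were kept, 721 and 126 in DESeq2, 16 and 1 when the threshold was 0.01, 24 and 1 without Sham 4 and PHx 4, and 0 to 160 and 0 to 9 when each library was left out. A replicate block on the library numbers gave 14 and 1. Over all genes the deviations of libraries with the same number were not alike (correlations of -0.09, -0.23 and 0.03). None of the 6 correlated best with its own number. The labels do not say whether libraries with the same number were paired. These correlations cannot decide it, because deviations from a mean of 3 libraries depend on each other. Klf2, Klf3, Klf6, Klf10, Klf13 and Nos3 kept their direction in every alternative. The others, all near 0, did not. Klf7 was at 0.0057 and Klf11 at 0.0353 with the 5 CPM filter, and Klf9 at -0.011 with upper-quartile factors and -0.0087 with no filter. Leaving out each library gave -0.37 to 0.0932 for Klf4, -0.11 to 0.0065 for Klf7, -0.11 to 0.15 for Klf9 and -0.15 to 0.0591 for Klf11. A stricter threshold lowers a count by construction. Leaving out a library did not always do so: 9 genes were lower without PHx 3, against 3 with all libraries. The cause of the other changes was not tested. List medians without single libraries were added after seeing the data. Every member had at least 1814 counts in each library.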

Other observations

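Several members took the same rank in the libraries numbered 4. Within each group library 4 had the highest Klf2 and Klf6 and the lowest Klf3, Klf9, Klf10 and Nos3, so 6 of the 10 members were at an end in both groups. Over all 19033 tested genes library 4 was the highest in both groups for 13.5% and the lowest in both for 15.1%. The immediate early sum was also highest in library 4 of each group, reaching 18070 CPM in Sham 4 against 22310 CPM in PHx 4. Neutrophil markers summed to 4642 CPM in PHx 4, the highest of the 6 libraries, but to only 32.7 CPM in Sham 4, the lowest. The pattern was noticed after the values were seen and was not tested.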
